A study of Homo sapiens with 20 samples.

Results

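The 10 chemokine genes described here were the rows of the expression table with the symbols CXCL1, CXCL2, CXCL3, CXCL8, CXCL9, CXCL10, CXCL11, CCL2, CCL5 and CCL20, 10 of the 36076 genes in the table. They were measured by mRNA-seq in 6 human lines derived from lung cancers (H1792, H1299, PC9, A549, CL1-5 and CL1-0), with 1 library per line and treatment. Mock cells received phosphate-buffered saline, and the treated cells received decitabine (DAC), a cytidine analog that depletes DNA methyltransferases, at 100 nM for 72 h followed by 3 days without drug. Omni-ATAC-seq, which reads open chromatin, was done in the same way on A549, H1299, CL1-5 and PC9 (8 libraries). Each line is a cultured tumor cell population, so no leukocytes or stroma of a tumor were sampled.

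Chemokines are small secreted proteins that bind receptors on leukocytes and draw them along a gradient. The 3 interferon-type members, CXCL9, CXCL10 and CXCL11, bind CXCR3 on activated T cells and NK cells, and their genes are classical targets of interferon signaling. The 5 NF-kB-type members comprise CXCL1, CXCL2, CXCL3 and CXCL8, which draw neutrophils through CXCR2 (and CXCR1 for CXCL8), and CCL20, which draws CCR6-bearing lymphocytes and dendritic cells. CCL2, the CCR2 ligand that draws monocytes, and CCL5, which draws T cells and monocytes, take both inputs and stood in neither type. In bulk RNA, fewer cells expressing a gene and less RNA per cell cannot be told apart.

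The promoters of 5 members are shown here because they span both types and the genes described most below. Each is the 250 bases before the start in the RefSeq sequence of GRCh38.p14, 5′ to 3′ on the gene's strand. Capitals mark letters that match 1 of 5 motifs searched on both strands, GGGNNTTTCC or GGAATTTCC (NF-kB), GAAANNGAAA (interferon response element), TTCNNNGAA (STAT element) or TGANTCA (AP-1), where the first 2 overlap. RefSeq promoters were matched for 8 of the 10 members, all but CCL2 and CCL5.
CXCL10 (chr4:76023498-76023747, minus strand): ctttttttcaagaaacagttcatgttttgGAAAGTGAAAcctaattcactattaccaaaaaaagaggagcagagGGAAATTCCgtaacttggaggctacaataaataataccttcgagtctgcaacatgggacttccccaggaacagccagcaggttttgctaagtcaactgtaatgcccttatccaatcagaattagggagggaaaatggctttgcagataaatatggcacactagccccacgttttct
CXCL11 (chr4:76036071-76036320, minus strand): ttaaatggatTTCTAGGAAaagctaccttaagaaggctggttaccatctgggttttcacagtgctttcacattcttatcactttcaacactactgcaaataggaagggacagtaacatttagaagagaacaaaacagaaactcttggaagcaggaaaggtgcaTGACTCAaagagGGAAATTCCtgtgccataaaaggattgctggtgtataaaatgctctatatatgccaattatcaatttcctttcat
CXCL1 (chr4:73869143-73869392, plus strand): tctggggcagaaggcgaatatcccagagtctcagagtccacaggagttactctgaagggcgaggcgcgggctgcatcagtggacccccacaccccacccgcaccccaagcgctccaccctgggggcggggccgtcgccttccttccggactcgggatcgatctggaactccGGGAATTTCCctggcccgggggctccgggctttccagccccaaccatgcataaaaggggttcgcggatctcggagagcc
CXCL8 (chr4:73740319-73740568, plus strand): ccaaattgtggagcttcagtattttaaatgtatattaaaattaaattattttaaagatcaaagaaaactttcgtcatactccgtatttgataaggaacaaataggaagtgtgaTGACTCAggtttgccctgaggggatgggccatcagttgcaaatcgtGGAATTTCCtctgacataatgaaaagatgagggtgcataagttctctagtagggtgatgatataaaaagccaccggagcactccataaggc
CCL20 (chr2:227813592-227813841, plus strand): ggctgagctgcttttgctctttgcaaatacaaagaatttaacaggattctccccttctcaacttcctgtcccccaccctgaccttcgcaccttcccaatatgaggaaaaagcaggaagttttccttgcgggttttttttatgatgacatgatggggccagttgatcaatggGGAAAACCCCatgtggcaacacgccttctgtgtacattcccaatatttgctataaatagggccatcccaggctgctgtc
CXCL10 held an interferon response element from -221 to -212 and an NF-kB motif from -176 to -168, and CXCL11 held a STAT element, an AP-1 motif and an NF-kB motif. CXCL9, not printed, held an interferon response element from -171 to -162. CXCL1, CXCL2 and CXCL3 held the same 10 letters, GGGAATTTCC, at nearly the same place, from -79 or -78 to -70 or -69. CXCL8 paired AP-1 at -137 to -131 with NF-kB at -91 to -83, and CCL20 held an NF-kB motif from -79 to -70. Among 35116 promoters of this length the shares with each motif were 1.73% for GGGNNTTTCC, 0.413% for GGAATTTCC, 3.02% for GAAANNGAAA, 6.57% for TTCNNNGAA and 6.57% for TGANTCA. Each match is a description of letters and not a measured binding site.

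The promoters also parted in CpG dinucleotides, the sites that DNA methyltransferases act on. CXCL1, CXCL2 and CXCL3 held 18, 20 and 19 CpG in 250 bases. CXCL8 held 4, CXCL10 and CCL20 held 3 each, and CXCL9 and CXCL11 held 0. Against the 35116 promoters, 63.2% to 67.6% held fewer CpG than the first 3 genes and at most 29.3% held fewer than the other 5. DNA methylation was not analysed here, and the part of CpG content in the results was not tested.

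On GRCh37 the members lie on 3 chromosomes. CXCL8 (ENSG00000169429, chr4:74606236-74609433), CXCL1 (ENSG00000163739, chr4:74735110-74737025), CXCL3 (ENSG00000163734, chr4:74902306-74904524) and CXCL2 (ENSG00000081041, chr4:74962757-74964913) form 1 cluster, and CXCL9 (ENSG00000138755, chr4:76922428-76928662), CXCL10 (ENSG00000169245, chr4:76942271-76944650) and CXCL11 (ENSG00000169248, chr4:76954835-76962568) form another on the same chromosome. CCL2 (ENSG00000108691, chr17:32582293-32584227), CCL5 (ENSG00000271503, chr17:34198495-34207797) and CCL20 (ENSG00000115009, chr2:228670455-228682280) lie elsewhere. CXCL10 and CXCL11 lie within ART3, a gene of the opposite strand, and whether the counting used the strand is not given in the sources used here. ART3 had at most 28 reads in a library. CXCL9 overlaps SDAD1-AS1 of the opposite strand, with 194 and 218 reads in H1299 and at most 7 elsewhere. Of the 50-base windows of the annotated transcripts, CXCL2 shared 9.63% with CXCL3 and CXCL1 shared 4.57% with CXCL2, so a part of the reads of these 3 genes could have been exchanged between them.

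The libraries held between 22234485 and 25303899 reads on genes, except those of H1299, with 59735913 in Mock and 52634234 after DAC. The deposited values were FPKM, reads scaled to gene length and library depth, and whole reads were recovered from them, with 3 reads or fewer in a library treated as undetected (the floor, which covers counting error only). H1299 reads were mostly even in number (85.5% and 81.9% of genes with 1 to 20 reads, against 39.2% to 41.5% elsewhere), and a single read there does not equal one elsewhere. The summed FPKM of 12 leukocyte markers was 1.03 to 5.89 in Mock and 1.37 to 10.1 after DAC, with 7 of the 12 at a mean under 0.1. Only 1 of the 12, CD3E of the T cell receptor complex, was under the floor in all 12 libraries. ITGAM and CD14 reached 454 and 352 reads in a library. The fibroblast markers summed to 0.279 to 101.6 in Mock and 1.79 to 155 after DAC, and the endothelial ones to 0.333 to 7.40 and 0.390 to 11.4. The 6 epithelial markers summed to 0.985 to 3589 in Mock and 3.06 to 2235 after DAC, and they differed within a line. In Mock H1299, KRT18 and KRT8 stood at 73.4 and 37.8. There KRT7 was at 0.406, KRT19 at 0.015, CDH1 at 0.0113 and EPCAM, an epithelial surface protein, at 0.0555. The part of these markers in the results below was not tested.

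Over 5 of the lines (H1299, PC9, A549, CL1-5 and CL1-0), with H1792 described on its own, none of the 9 members that passed the filter (a mean FPKM of at least 0.1) was called higher or lower by limma on log2(FPKM + 0.1), blocking on the line, after Benjamini-Hochberg adjustment. Over all 22603 genes tested, 27 (0.119%) were called higher and 0 (0%) lower. That count rested on single lines, with 0 without A549, 0 without CL1-5, 5 without CL1-0 and 12 without PC9. Without adjustment, at p under 0.05, limma put 1825 genes (8.07%) higher and 994 (4.40%) lower, among them 3 members higher (CCL5, CXCL11 and CCL20) and 0 lower. CXCL11, at 0 reads in every Mock library, passed the filter only through its DAC libraries and could not have been lower. CCL20 was at 0 reads in Mock CL1-0, CL1-5 and H1299. The replicates in this fit are the lines, so a gene that moved in some lines and not in others, as most members did, has a wide error. The levels in each library are plotted first.

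**Figure D1:**
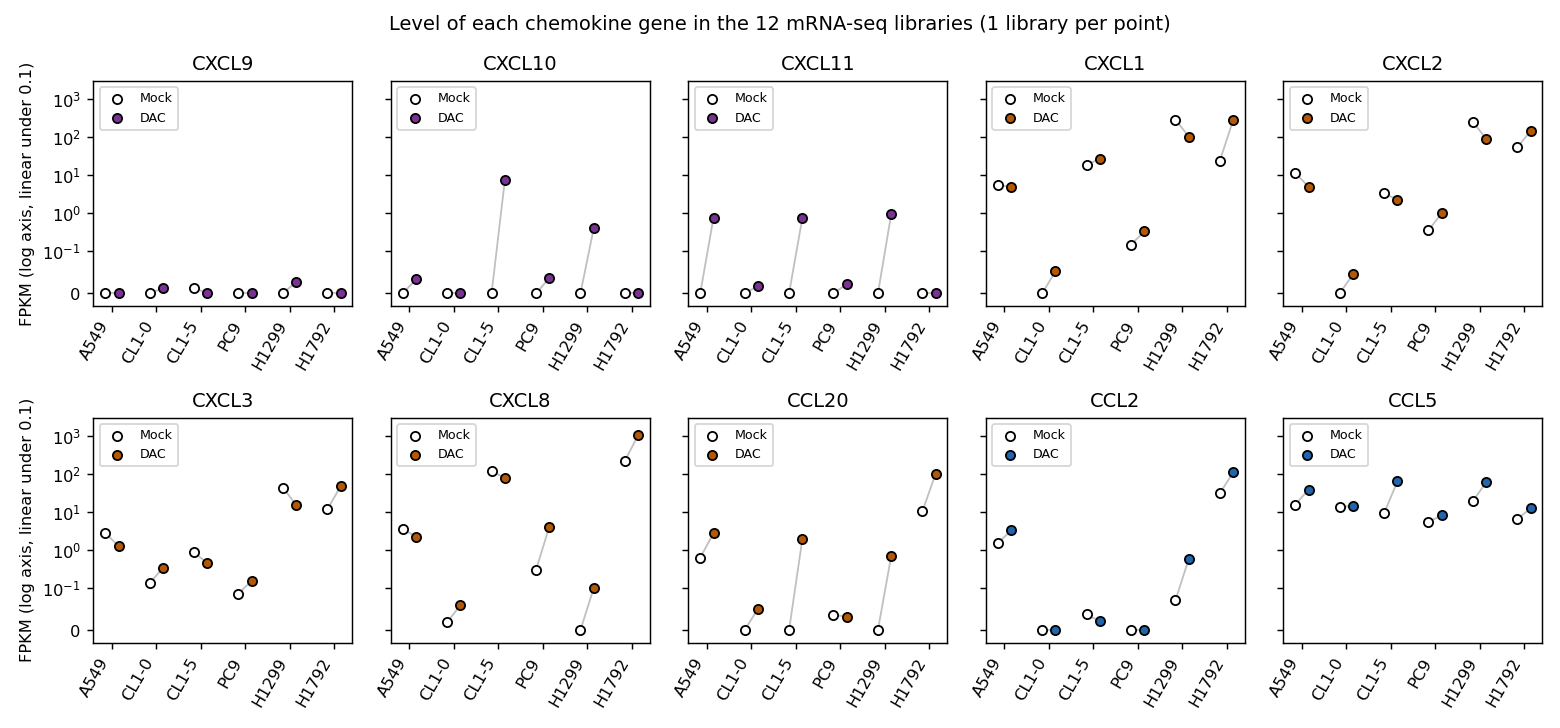
FPKM of the 10 chemokine genes (y axis, logarithmic above 0.1 and linear below) in 6 cell lines (x axis), with Mock as open points and DAC as filled points, 1 library per point. CXCL9, CXCL10 and CXCL11 sit at or next to 0 in every Mock library, the NF-kB-type genes span from 0 to 1040, and CCL5 is above 5 in all 12 libraries.

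CXCL10 was at 0 reads in all 6 Mock libraries. After DAC it had 215 reads in CL1-5 (FPKM 7.53) and 25 reads in H1299 (FPKM 0.402), 1 read in A549 and in PC9, and 0 in CL1-0 and H1792. This was at least 80.0-fold higher in CL1-5, taking the 3-read floor of the Mock library as the base, and at least 4.51-fold higher in H1299, where 6 reads were taken as the base of every bound because reads came mostly in even numbers. Over the 5 lines the log2 fold change was 1.89 (SE 0.88, limma adjusted p = 0.427), and the DAC libraries of the other lines overlapped with Mock.

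CXCL11 was at 0 reads in all 6 Mock libraries too. It had 37 reads in A549 (FPKM 0.767), 35 in CL1-5 (FPKM 0.755) and 96 in H1299 (FPKM 0.952) after DAC. CL1-0 and PC9 had 1 read each and H1792 had 0. These were at least 10.4-fold higher in A549, at least 13.0-fold higher in CL1-5 and at least 17.3-fold higher in H1299. The log2 fold change over the 5 lines was 2.03 (SE 0.57, limma adjusted p = 0.282). CXCL9 did not exceed 1 read in any library but the DAC library of H1299, which had 4, and it was under the filter.

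The 3 interferon-type genes therefore were not detected in any line before treatment, and the lines in which CXCL10 or CXCL11 passed the floor were A549, CL1-5 and H1299. Their FPKM remained low in absolute terms, since the sum of the 3 genes after DAC was 8.28 in CL1-5, 1.38 in H1299 and 0.800 in A549, and the NF-kB-type sum in the same libraries was 110, 210 and 16.0. In Mock a gene at 0 can only rise, so the direction of these differences was fixed by their starting level.

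Among the NF-kB-type genes the level before treatment already set the lines apart. CXCL8 (interleukin-8), a potent neutrophil attractant, had an FPKM of 222 in H1792, 118 in CL1-5, 3.59 in A549, 0.296 in PC9, 0.0186 in CL1-0 and 0 in H1299 in Mock. After DAC it was 1040 in H1792, 78.4 in CL1-5, 2.2 in A549, 4.08 in PC9, 0.0594 in CL1-0 and 0.0999 in H1299. It was 4.68-fold higher after DAC in H1792 and 13.8-fold higher in PC9, and 1.51-fold lower in CL1-5 and 1.63-fold lower in A549. In H1299 it went from 0 to 12 reads, at least 2.16-fold higher. With 1 library per line and treatment, no error attaches to the change of 1 line. The log2 fold change over the 5 lines was 0.71 (SE 0.56, limma adjusted p = 0.60).

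CXCL1 was highest in H1299 in Mock, at 290, and was at 104 there after DAC. In H1792 it went from 23.9 to 283, which is 11.8-fold higher. In CL1-5 it went from 18.6 to 27.0, in A549 from 5.62 to 4.88 and in PC9 from 0.148 to 0.333, and in CL1-0 it was under the floor. The lines with the highest levels thus moved in opposite directions, and over the 5 lines the log2 fold change was 0.05 (SE 0.33, limma adjusted p = 0.957), with a sign that changed under a pseudocount of 1 (-0.17), quantile normalization (-0.14) and voom on the recovered reads (-0.44), and without CL1-0 (-0.09), CL1-5 (-0.07) or PC9 (-0.13). With H1792 included it was 0.64 (SE 0.53, limma adjusted p = 0.662).

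CXCL2 was lower in H1299 and higher in H1792 as well, going from 251 to 90.5 in H1299, from 54.6 to 146 in H1792, from 11.7 to 4.93 in A549, from 3.37 to 2.25 in CL1-5 and from 0.353 to 1.01 in PC9. Its log2 fold change was -0.29 (SE 0.40, limma adjusted p = 0.772), with 0.13 at a pseudocount of 0.01 and 0.01 without H1299. CXCL3 went from 43.7 to 15.1 in H1299, from 11.7 to 47.1 in H1792, from 2.84 to 1.25 in A549, from 0.865 to 0.445 in CL1-5, from 0.134 to 0.335 in CL1-0 and from 0.0867 to 0.156 in PC9. Its log2 fold change over the 5 lines was -0.43 (SE 0.37, limma adjusted p = 0.631). In H1299 the 3 genes were lower after DAC by nearly the same factor, 2.80-fold, 2.77-fold and 2.90-fold. Over the 12 libraries, which share lines in pairs, the log2 levels of CXCL1, CXCL2 and CXCL3 correlated at Pearson's r of 0.88 to 0.95, and those of CXCL1 and CXCL8 at 0.44. These correlations are descriptions, and the shared windows named above enter the first of them.

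In A549, CCL20 parted from the CXC genes of its type. It was at 0 reads in Mock CL1-5 and H1299 and had 64 reads (FPKM 1.96) and 50 reads (FPKM 0.705) after DAC, at least 23.8-fold and at least 9.02-fold higher. In A549 it went from 18 to 93 reads (FPKM 0.625 to 2.74), and in H1792 from an FPKM of 10.3 to 101, which is 9.81-fold higher. CL1-0 and PC9 stayed under the floor in both libraries. It was higher in the 4 lines in which it was detected, while CXCL2 and CXCL3, with reads in Mock, were lower in 3 of those 4. In CL1-5 and H1299, CCL20 was detected only after DAC and could only be higher, so the contrast there was fixed by its starting level. Its log2 fold change over the 5 lines was 1.98 (SE 0.62, limma adjusted p = 0.302).

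CCL2 was detected in 3 lines. Its FPKM went from 1.48 to 3.24 in A549, from 0.0704 to 0.572 (8 to 60 reads) in H1299 and from 30.8 to 110 in H1792. CL1-0 and PC9 had 0 reads in both libraries, and CL1-5 had 2 and 1. The log2 fold change over the 5 lines was 0.58 (SE 0.37, limma adjusted p = 0.530). Its levels correlated with those of CCL20 at r = 0.92 over the 12 libraries.

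CCL5 was the member expressed everywhere. Its FPKM in Mock was 19.3 in H1299, 15.6 in A549, 13.5 in CL1-0, 9.13 in CL1-5, 6.56 in H1792 and 5.41 in PC9. After DAC it was 63.3 in CL1-5, 60.4 in H1299, 38.6 in A549, 14.2 in CL1-0, 12.3 in H1792 and 8.17 in PC9. It was higher after DAC in 6 of 6 lines, by 1.05-fold in CL1-0 to 6.93-fold in CL1-5, and the Mock and DAC ranges overlapped. The mean over the 5 lines was 12.6 ± 5.43 (SD, n = 5) in Mock and 36.9 ± 25.4 with the drug. Its log2 fold change over these lines was 1.28 (SE 0.36, limma adjusted p = 0.278). The 3 largest differences were in CL1-5, H1299 and A549, the lines in which CXCL11 was detected, and the log2 levels of CXCL11 and CCL5 correlated at r = 0.88 over the 12 libraries. Outside the DAC libraries of these 3 lines CXCL11 had at most 1 read, so this r adds little to that statement.

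**Figure D2:**
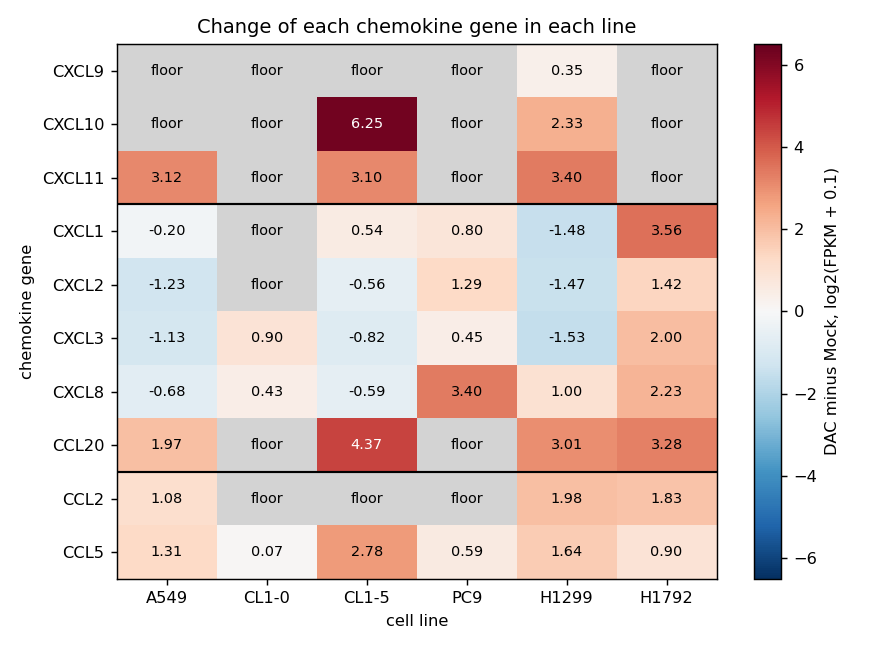
Change of each chemokine gene (rows) in each line (columns) as DAC minus Mock on the log2(FPKM + 0.1) scale, with gray cells where both libraries were at or under 3 reads and lines parting the interferon-type, NF-kB-type and dual-input genes. CXCL10 in CL1-5 is the highest cell at 6.25, and the lowest is CXCL3 in H1299 at -1.53.

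Within each line, with 1 library per treatment and a limit of 2-fold on the log2(FPKM + 0.1) scale, the chemokine genes were set beside all genes tested. In H1792, 6 of the 9 members in the fit were higher and 0 lower, where 10.3% of all genes tested were higher and 5.79% lower. In H1299, 5 were higher and 3 lower, beside 8.18% and 3.15%. In CL1-5, 4 were higher and 0 lower, beside 7.25% and 5.05%. In A549, 4 were higher and 2 lower, beside 15.5% and 6.69%, and the 2 lower ones were no longer past the limit after rescaling FPKM to a common sum. In PC9, 2 were higher and 0 lower, beside 10.2% and 3.10%, and in CL1-0, 0 moved either way, beside 7.60% and 2.14%. The members counted as higher included some at 0 reads in Mock, which could only be higher. These were CXCL10, CXCL11 and CCL20 in CL1-5 and H1299, and CXCL11 in A549. CXCL10 and CXCL11 passed the filter only through their DAC libraries. The counts were not tested against the shares.

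The types were then set side by side within each line. Over all 3 interferon-type and all 5 NF-kB-type genes, with no floor, the mean log2 changes were 3.06 and 0.59 in CL1-5, 2.03 and -0.09 in H1299, 1.18 and -0.25 in A549, 0.25 and 1.18 in PC9, 0.13 and 0.61 in CL1-0, and 0.00 and 2.5 in H1792. The interferon-type mean was thus the higher in CL1-5, H1299 and A549 and the lower in PC9, CL1-0 and H1792, and the mean difference over the 5 lines other than H1792 was 0.92. In PC9, CL1-0 and H1792 each interferon-type gene had at most 1 read in a library, so the order of the types there rests on genes not detected. In CL1-0 only 2 of the 5 NF-kB-type genes passed the floor. No test was made of these means, since the members were chosen with results of these data known. A gene at 0 in Mock can only be higher or at 0 after DAC, so the sign of an interferon-type mean carries no information. An NF-kB-type gene with reads in Mock could go either way. CCL20 in CL1-5, H1299 and CL1-0 was also at 0 reads in Mock. So were CXCL8 in H1299, and CXCL1 and CXCL2 in CL1-0. In CL1-5 the changes were 4.37 for CCL20, and 0.54, -0.56, -0.82 and -0.59 for CXCL1, CXCL2, CXCL3 and CXCL8. Restricted to members past the floor, which leaves 3 lines and which the interferon-type genes passed only through their DAC libraries, the difference was 3.19 ± 1.00 (SD, n = 3 lines), and that value is a description of the genes that were detected. It was 1.37 with a pseudocount of 1 and 5.61 with 0.01. In A549 it rested on CXCL11 alone, and in H1299 the interferon-type mean was 2.86 in place of 2.03 with CXCL9, at 4 reads, left out.

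Counting CCL5 as interferon-type and CCL2 as NF-kB-type gave a difference above 0 in CL1-5 (3.46), A549 (2.24) and H1299 (1.68) and below 0 in CL1-0 (-0.59), PC9 (-0.90) and H1792 (-1.48), among members past the floor. In CL1-0, PC9 and H1792 none of CXCL9, CXCL10 and CXCL11 passed the floor. The interferon side there was CCL5 alone, so these values do not describe the interferon-type genes.

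Gene lists outside the chemokines were set beside these values, line by line. Of 20 interferon-stimulated genes, 13 had an unadjusted p under 0.05 with a higher level after DAC, and 0 passed limma's adjusted threshold. Their median log2 fold change over the 5 lines was 1.41, beside 0.07 for all genes tested. By line it was 3.0 in CL1-5, 2.7 in A549, 1.17 in H1299, 0.44 in PC9, 0.23 in H1792 and -0.01 in CL1-0, where the median over all genes tested was 0.00 to 0.07. The extremes over the 5 lines were IFI27, an interferon-induced mitochondrial protein, at 3.51 (SE 0.69, limma adjusted p = 0.175), and IRF9, a subunit of the interferon-activated transcription factor ISGF3, at 0.50 (limma adjusted p = 0.519). Of 20 NF-kB feedback and target genes, 11 were higher by the same unadjusted limit, and 0 passed after adjustment. Their median was 0.73 over the 5 lines and, by line, 1.96 in H1792, against 0.61 to 0.76 in A549, CL1-5, PC9 and H1299 and 0.00 in CL1-0. ICAM1, which encodes an adhesion molecule of immune synapses, had the largest change at 3.04 (SE 0.41, limma adjusted p = 0.0719), and NFKB1, the p105 precursor subunit, the smallest at 0.06.

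**Figure D3:**
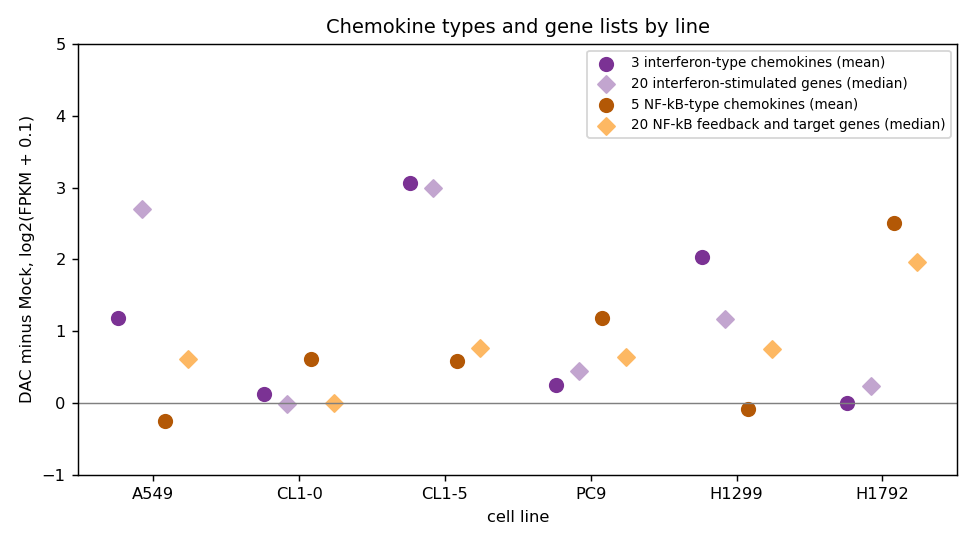
Change after DAC on the log2(FPKM + 0.1) scale (y axis) by cell line (x axis), with circles for the mean over all 3 interferon-type or all 5 NF-kB-type chemokine genes and diamonds for the median of 20 interferon-stimulated or 20 NF-kB genes. The interferon-type circle is above the NF-kB-type circle in A549, CL1-5 and H1299 and below it in CL1-0, PC9 and H1792, where no interferon-type gene passed the floor. The interferon-type circle cannot lie far under 0 because these genes started at or next to 0 reads.

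Genes upstream of the chemokines were read from a list of 25 sensors, kinases, receptors and transcription factors, with a median log2 fold change of 0.19. By the same unadjusted limit 4 of these were higher and 0 lower, and 0 passed after adjustment. RIGI, a cytosolic RNA sensor, had the largest change, at 1.49 (limma adjusted p = 0.282), going from 10.3 to 53.7 in CL1-5 and from 0.943 to 9.05 in A549, and from 3.08 to 5.96 in H1792. IFNAR2, a subunit of the type I interferon receptor, had the smallest at -0.13. Of the 9 interferon genes 4 were tested, and 1 was higher by the unadjusted limit. IFNL1, a type III interferon, was at 0 in Mock A549 and H1299 and at 0.277 and 0.618 after DAC, went from 0.129 to 2.11 in CL1-5 and from 0.840 to 1.30 in CL1-0, and stayed at 0 in PC9 and H1792 (log2 fold change 1.72, limma adjusted p = 0.286). IFNE, an epithelial type I interferon, was at -0.02. IFNB1, named here after its values were seen, had at most 2 reads in any library.

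Chemokine receptors and the other ligands were read alongside. ACKR3, a scavenging receptor of CXCL11 and CXCL12, was the one receptor of the 19 in the table that averaged an FPKM above 1 over the 12 libraries. In PC9 it went from 10.9 to 5.61, and its change over the 5 lines was 0.05 on the log2 scale. CCR4, a T cell receptor of other CC chemokines, had the largest change of the 9 receptors tested, at 2.77 (limma adjusted p = 0.235), from at most 0.0274 in Mock to 2.12 in A549 and 2.65 in H1299. Among receptors of the members, CXCR2, CXCR3 and CCR2 had at most 3, 24 and 1 reads in a library. CCR1, a further receptor of CCL5 that was named after its values were seen, had up to 91 reads and went from 0.149 to 1.37 in CL1-5. Of the 9 receptors 1 was higher by the unadjusted limit. Of 36 other ligands, 11 were tested, and 1 was higher by that limit. CCL26, a CCR3 ligand that draws eosinophils, was higher in 5 of 5 lines, with a log2 fold change of 2.2 (SE 0.34, limma adjusted p = 0.0937), and went from 3.08 to 23.96 in H1792. CXCL16, a membrane-bound ligand of CXCR6, had the smallest change, at 0.16. CXCL5, a CXCR2 ligand, stood at 262 and 244 in H1792 and at 44.6 and 30.4 in A549. CXCL6, a further CXCR2 ligand, was under the filter over the 5 lines and went from 38.0 to 192 in H1792. CCL28, which draws lymphocytes to mucosa, had a mean FPKM of 2.39 and a log2 fold change of 0.19, and XCL1, the XCR1 ligand, had 1.38 and 0.59.

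Marker genes of other cells were read for the same libraries. The extremes of each list over the 5 lines were EPCAM (1.69) and CDH1 (0.31) for epithelium, CD3D (1.18) and NKG7 (0.03) for leukocytes, PDGFRB (1.38) and COL3A1 (0.51) for fibroblasts, and VWF (1.91) and CDH5 (0.61) for endothelium, as log2 fold changes. By the unadjusted limit 1 of 6, 2 of 6, 3 of 4 and 2 of 3 tested genes of these lists were higher, and 0 passed limma's adjusted threshold. CD3D and NKG7 had at most 11 and 13 reads in a library. In H1792, the line with the highest NF-kB-type mean, the 6 fibroblast markers were all higher after DAC, with COL1A2 from 0.0867 to 6.12, COL3A1 from 1.92 to 8.86, DCN from 3.53 to 11.1, LUM from 25.9 to 50.6, PDGFRB from 1.61 to 3.47 and COL1A1 from 68.6 to 74.9. Of the endothelial markers there, CDH5 went from 0.081 to 1.2, ESAM from 0.11 to 1.10 and TEK from 0.00839 to 0.269, and KDR differed by 0.02 on the log2 scale. The part of these markers in the chemokine values of that line was not tested.

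The genes whose log2 levels were most like those of CXCL10, among genes averaging an FPKM of 1 or more over the 12 libraries, were RSAD2 (r = 0.85), USP18 (0.845), SP110 (0.828), TDRD7 (0.814) and HERC5 (0.783). Outside the DAC libraries of CL1-5 (215 reads) and H1299 (25 reads), CXCL10 had at most 1 read. These r values therefore rest mainly on CL1-5 after DAC, where each of the genes had its highest FPKM. RSAD2 encodes viperin, an antiviral enzyme, and USP18 a protease that removes ISG15. RSAD2 had an FPKM of 1.57 in Mock CL1-5 and 23.6 after DAC, and at most 0.262 in the other lines. The genes most like CXCL8 were THBD (0.967), NFKBIZ (0.965), PID1 (0.941), IL6 (0.941) and STK17A (0.939). IL6, a cytokine with an NF-kB site in its promoter, went from 13.4 to 128 in H1792 and from 15.1 to 47.0 in CL1-5, where CXCL8 was lower after DAC. THBD, the thrombin receptor thrombomodulin, had 72.2 and 63.9 in H1792. Each r is over 12 libraries of 6 lines that share a line in pairs.

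Open chromatin at these genes was read from the peaks of the 8 Omni-ATAC-seq libraries, a measure the choice of the genes did not use. For CL1-5 and PC9 the sample labels and the peak identifiers name opposite lines, so these libraries are called by their labels throughout. Of 143 genes expressed in PC9 (FPKM of at least 5 in Mock) and silent in CL1-5 (under 0.1), 92.3% carried a promoter peak in Mock cells labelled CL1-5 and 51.7% in those labelled PC9. Of 80 genes expressed in CL1-5 and silent in PC9, 62.5% carried one under the label CL1-5 and 87.5% under PC9. Accessibility in these Mock libraries thus went against the labels. The depth of each Omni-ATAC-seq library is not given in the sources used here, and the peak lists held 45354 to 97584 peaks, with more after DAC than in Mock in each of the 4 lines.

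CXCL1, CXCL2 and CXCL3, whose promoters hold 18 to 20 CpG, had a promoter peak (within 3000 bp of the start listed by the authors) in all 8 libraries. The fold enrichment over background ranged from 3.34 to 4.89 for CXCL1, from 5.31 to 9.11 for CXCL2 and from 5.31 to 9.32 for CXCL3. It was lower after DAC than in Mock in each of the 4 lines for CXCL2 and CXCL3, for example 9.11 and 7.22 for CXCL2 in A549, without a replicate or a known depth per library behind the difference. For CXCL1 it was lower in 3 and higher in H1299 (3.34 and 4.03), where its FPKM went from 290 to 104. These peaks were there in lines with little RNA of the genes as well as in lines with much.

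CXCL8 had a promoter peak in A549 (fold enrichment 6.17 in Mock and 4.91 after DAC) and in the libraries labelled PC9 (7.48 and 7.32), and none in H1299 or the libraries labelled CL1-5. Read by label, the peak was thus absent in CL1-5, in which CXCL8 RNA was at 118, and present in PC9, in which it was at 0.296. With the 2 labels exchanged, it was present in CL1-5 and absent in PC9. A second site, at -12681 bp from the CXCL8 start (chr4:74593356-74593754), had peaks in the 4 libraries labelled CL1-5 and PC9 (5.26 to 10.6) and none in A549 or H1299.

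CCL2 had a promoter peak in both A549 libraries and in Mock labelled PC9. CCL5 had one in A549 after DAC (3.02, −log10 q of 1.42) and not in Mock, and in both libraries labelled PC9 (3.49 and 3.84). In H1299, in which CCL5 RNA was at 60.4 after DAC, no CCL5 promoter peak was listed. The number of members with a promoter peak in A549 after DAC went from 6 to 5, as in Mock, with peaks of q under 0.01 alone or with equal numbers of peaks in Mock and DAC. CCL20 had no promoter peak listed by the authors in any library. The CCL20 promoter printed above belongs to a RefSeq start, and neither that start nor the authors' start need be the outermost annotated one. Measured from the outermost start, that of the position given above, 2 regions lay nearby. One at -674 bp had a peak in A549 after DAC alone (3.51), and one at -2631 bp in Mock labelled CL1-5 alone (3.91). A region just past the annotated end of CCL20 (chr2:228682639-228683861) had a peak in all 8 libraries, with fold enrichment from 4.48 to 7.33. CXCL9, CXCL10 and CXCL11 had no promoter peak listed in any library. In all, 3 to 6 of the 10 members had a listed promoter peak in a library, where 76.5% to 83.3% of 15425 genes had one. Counted by distance to any annotated transcript start, 4 to 8 had one. The members this added were CCL20 and CXCL11. CCL20 came in through the region past its annotated end, which had a peak in every library. CXCL11 came in after DAC in A549, H1299 and the library labelled PC9, through an upstream region described below.

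**Figure D4:**
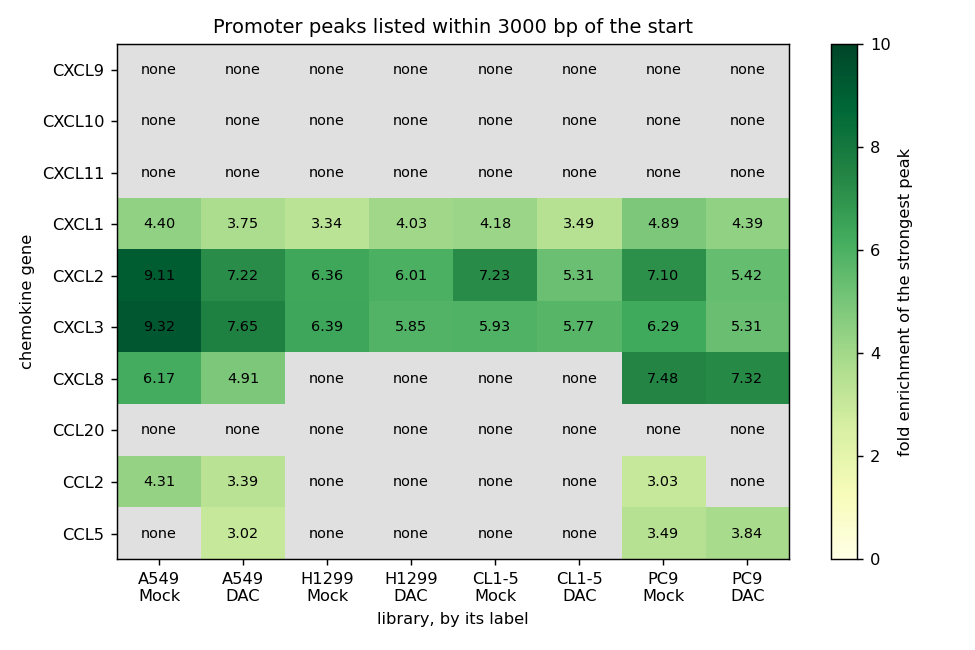
Fold enrichment over background of the strongest peak listed within 3000 bp of the start of each chemokine gene (rows) in each Omni-ATAC-seq library (columns, by label), with "none" where no peak was listed. CXCL1, CXCL2 and CXCL3 have a value in 8 of 8 libraries, CXCL8 in 4, and CXCL9, CXCL10, CXCL11 and CCL20 in 0.

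Around the members, peaks of the 8 libraries within 20000 bp merged into 36 regions. Of these, 6 (16.7%) had a peak in all 8 libraries, against 9.65% of all 208376 merged regions, and 12 (33.3%) had none in Mock, against 33.6%. A pair of regions upstream of CXCL11, both in the first intron of ART3, had peaks in the DAC libraries of A549, H1299 and the line labelled PC9 and in no Mock library. The nearer was centred at -1903 bp from the outermost annotated CXCL11 start, with fold enrichments of 4.0 in A549, 3.12 in H1299 and 4.02 in the library labelled PC9. The farther was centred at -9117 bp, with 4.42, 3.06 and 3.03. From the CXCL11 start used by the authors, the listed distances were -6599 to -6745 bp for the nearer and -14016 to -14135 bp for the farther. The CXCL11 promoter printed above belongs to a RefSeq start, which need not be the outermost one. How reads that map to several places were treated in making the peaks is not given in the sources used here, and the part of such reads in these 2 peak regions was not tested. Of all merged regions, 544 (0.261%) had peaks in these 3 libraries alone, and the 2 regions were singled out after their values were seen.

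**Figure D5:**
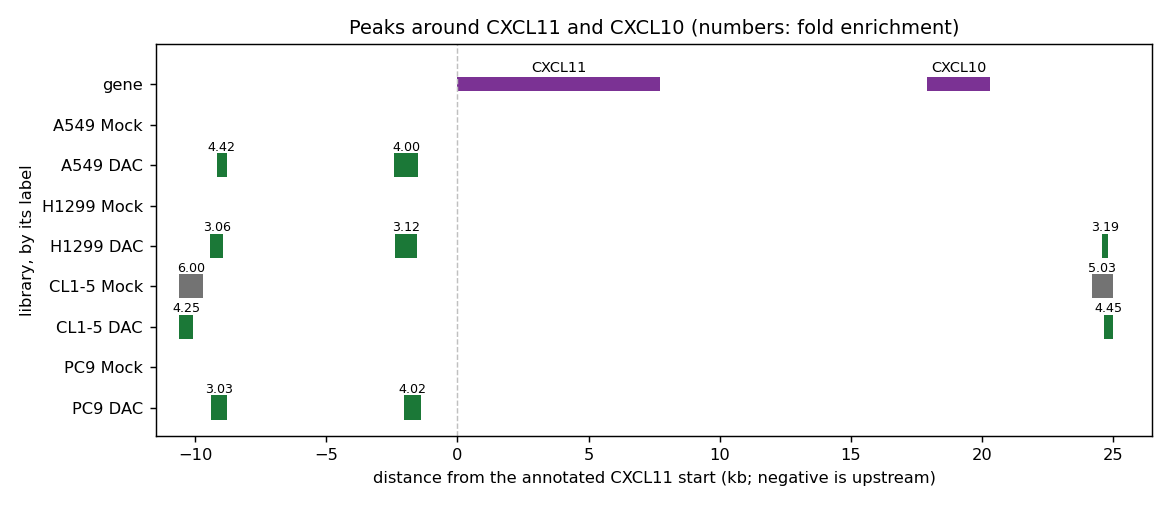
Peaks in each Omni-ATAC-seq library (rows, by label, DAC in green and Mock in gray) by distance from the outermost annotated CXCL11 start in kb (x axis, negative is upstream), with the fold enrichment above each peak and the CXCL11 and CXCL10 gene bodies in purple on the top row. The pair of peaks nearest upstream is present after DAC in A549, H1299 and the library labelled PC9, and in no Mock library.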

How the data were processed

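The mRNA reads were trimmed by the authors and mapped to hg19 (RSEM, bowtie2), then assigned to GENCODE genes, and the authors deposited FPKM from DESeq2. Their processing notes to GEO name TopHat2 2.1.1. In the same table the authors deposited a mean normalized signal and their own log2 fold change, standard error, test score, p-values and adjusted p-values, which were not used except the mean signal. The Omni-ATAC-seq reads were mapped by the authors with BWA 0.7.17-r1188 to hg19, and broad peaks were called per library with MACS2 2.2.5 and annotated with ChIPseeker 1.20.0. Each deposited list gives a score, a fold enrichment (a ratio to background), and p- and q-values as −log10. The number of value columns without a sample was 0.

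From the FPKM and the mean signal the reads behind each value were recovered, and 100% came out whole in each library. limma 3.58.1 (R 4.3.3) was fitted to log2(FPKM + 0.1) of genes averaging 0.1 FPKM or more over 10 libraries, blocking on the cell line and with a trended variance prior, at an adjusted threshold of 0.05 (Benjamini-Hochberg). Fold changes on this scale understate those of low genes. Cell lines are the replicates. Mock and DAC libraries of 1 line deviated together (r = 0.731 to 0.900, other lines at most 0.115). The fit was tested on simulated data. Peaks, promoters and motifs were read in Python 3.11.15 with numpy 2.4.6 and pandas 2.3.3, and figures were drawn with matplotlib 3.10.9. Regions are merged peaks that overlap.

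The members, their types and the gene lists were chosen with earlier results of these data known. Named genes are the members, the gene with the largest and the one with the smallest log2 fold change of each list, genes past the adjusted threshold, other ligands and receptors averaging 1 FPKM or more over the 12 libraries, and the 5 genes most like the most abundant member of each type. Some items are not reported here.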

Additional observations from a re-analysis of the deposited data

Results flagged for a closer look

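In 28 groups of 6 values (the level in Mock, the level after DAC and the change of each member over the 6 lines), 1 line lay far from the others in 3. Chance gives about 1 in 20 such groups where the values are independent and normal, which groups with several values at 0 are not, and no chance rate was computed for these groups. CXCL10 after DAC was at an FPKM of 7.53 in CL1-5, and its change there was 6.25 on the log2(FPKM + 0.1) scale, and in both the gap to the next line was 0.628 of the whole range, above Dixon's critical value of 0.625 for 6 values. Those 2 values rest on the same library. CXCL9 in Mock was at 0.0135 in CL1-5, which is 1 read beside 0 reads in the other lines and lies under the floor.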

How the results depend on the processing

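None of the members was called under any of the 15 alternatives of the fit, and the lowest adjusted p from limma was 0.0844, for CXCL11 with voom on the recovered reads. Some members failed the filter of an alternative and were not fitted in it. These were CXCL10, CXCL11, CCL20 and CCL2 at a mean FPKM of at least 1, CXCL10 without CL1-5, and CCL2 without A549. Over all genes, 53 were called higher with H1792 included, 10 with no replicate block, 0 with a pseudocount of 1, 2 with no filter, 17 with quantile normalization, 6 with no trend and 178 with voom, which also called 1 lower. With 1 line left out, 0 to 22 were called higher (0 without A549 and 0 without CL1-5) and 0 to 1 lower. The members' log2 fold changes kept their sign in 121 alternative values and changed it in 8. For CXCL1 these were -0.17 with a pseudocount of 1, -0.14 with quantile normalization, -0.44 with voom and 3 values with a line left out, where the range was -0.13 to 0.44. For CXCL2 they were 0.13 with a pseudocount of 0.01 and 0.01 without H1299, where the range with a line left out was -0.68 to 0.01. The difference between the types was 1.37 with a pseudocount of 1, 5.61 with 0.01, 5.64 on the voom scale, and 4.28 with medians. With CCL5 and CCL2 added it was 1.18 over 5 lines, but 2.46 over the 3 lines of the value reported. In CL1-0 and PC9, which enter only the first of these values, the interferon side was CCL5 alone. Over all members with no floor the difference between the types was 0.92, over 5 lines, and with a floor of 6 reads in H1299 it was 3.47. The settings with 2.46, 0.92 and 3.47 were chosen after seeing the data. The difference could not be computed at a mean FPKM of at least 1, and the block and the trend do not enter it. Members at least 2-fold higher were 2 in A549, 1 in PC9 and 1 in H1299 with a pseudocount of 1, 6 in CL1-0 and 5 in PC9 with 0.01, and 1 in CL1-0 with a common sum. At 4-fold they were 1 in A549, 1 in PC9, 3 in H1299 and 3 in H1792. Members lower in A549 were 1 with a pseudocount of 1, 0 with a common sum and 0 at 4-fold, and those in H1299 were 0 at 4-fold. With the labels exchanged, members with a promoter peak were 6 (Mock) and 5 (DAC) for CL1-5 and 3 and 3 for PC9. The cause of each of these changes was not tested. The 3-read floor limits CXCL9 to CXCL11, CCL20 and CCL2, and 1 library per line and treatment limits every change within a line.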

Other observations

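ART3, whose first intron holds the pair of regions upstream of CXCL11 with peaks after DAC, encodes an ADP-ribosyltransferase-like protein and was at 0 reads in Mock A549 and CL1-5 and at 7 in Mock H1299. After DAC it had 4, 7 and 28 reads in these 3 lines, 2 in PC9, and 0 in CL1-0 and H1792. Reads of ART3 and of CXCL10 or CXCL11 on the opposite strand cannot be told apart where the counting did not use the strand.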
